A study of Mus musculus with 25 samples.

Results

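The 7 CXC chemokine genes Cxcl1, Cxcl2, Cxcl3, Cxcl9, Cxcl10, Cxcl11 and Cxcl16 were followed through mouse macrophages in resting, classically activated and alternatively activated states. They were chosen by symbol from the 24411 gene symbols measured, with earlier results of these data known. All 7 were found, and 8 other CXC ligands are counted separately. RNA-seq counts were available for 25 libraries in 9 conditions. Bone marrow-derived macrophages (BMDM) from C57BL/6 mice, matured for 4 days with 25 ng/ml M-CSF, gave 21 libraries in 7 groups of 3. These were untreated controls cultured for 4 h, cells given IFN-γ at 100 U/ml and LPS at 100 ng/ml for 1, 4, 12 or 24 h (IFN-LPS), cells given 10 ng/ml IL-4 for 12 h, and cells given 10 ng/ml IL-13 for 12 h. The IFN-LPS cells are described as primed with IFN-γ, and how long IFN-γ preceded LPS is not given in the sources used here. The other 4 libraries came from RAW264.7, a mouse macrophage-like cell line grown from a virus-induced tumour of BALB/c mice. They were 2 untreated cultures of 4 h and 2 cultures given 100 ng/ml LPS, without IFN-γ, for 4 h. The same 3 untreated BMDM libraries served for all 4 IFN-LPS times and for both interleukins. BMDM given LPS alone were not analysed here. The study's methods call the BMDM replicates biological, from independent RNA samples, but neither they nor the labels say whether these came from separate animals or cultures, so p-values measure the spread between these libraries.

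CXC chemokines are small secreted proteins, named for a motif in which 1 residue separates a pair of cysteines, that direct leukocytes along a gradient through G protein-coupled receptors. CXCL1, CXCL2 and CXCL3 act on CXCR2 and recruit neutrophils. CXCL9, CXCL10 and CXCL11 act on CXCR3 and recruit activated T cells and NK cells, and their genes are classical targets of interferon. CXCL16 differs in that it is made as a transmembrane protein that binds CXCR6 and oxidised lipoprotein, and is released by the protease ADAM10. LPS reaches these genes through TLR4 and NF-κB, and IFN-γ through its receptor and JAK kinases, whereas IL-4 and IL-13 signal through STAT6.

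In GENCODE M21 on GRCm38 (mm10), 6 of the 7 genes lie in clusters on chromosome 5. Cxcl3 (chr5:90786103-90789600), Cxcl1 (chr5:90891241-90893115) and Cxcl2 (chr5:90903871-90905938) are on the plus strand, and the starts of Cxcl1 and Cxcl2 are 12.6 kb apart. Cxcl9 (chr5:92321347-92328079), Cxcl10 (chr5:92346638-92348889) and Cxcl11 (chr5:92359544-92365485) stand side by side on the minus strand within 44.1 kb, 1.42 Mb beyond Cxcl2. Cxcl16 is alone on chromosome 11 (chr11:70453983-70459984, minus strand), where its first 552 bp overlap Zmynd15 on the other strand. Cxcl11 is annotated as a polymorphic pseudogene, since C57BL/6 mice carry a frameshift in it. In the BMDM its transcript can be counted even though no full protein is expected from it. RAW264.7 comes from BALB/c mice, and its allele was not examined.

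The promoters are shown so that the motifs of genes with different time courses can be set side by side. RefSeq promoters (250 bases before to 50 after the annotated start, GRCm38.p6) were on hand for 5 of the 7 genes. Capitals mark matches on either strand to an NF-κB-like motif (GGG-NN-TTTCC, where N is any base and the hyphens only part the letters), to the core of an interferon-stimulated response element, ISRE (GAAA-NN-GAAA), to a gamma-activated site, GAS (TTC-NNN-GAA), or to a TATA box (TATAAA), each written 5′ to 3′ on the strand of the gene.
Cxcl1, chr5:90890995-90891294, plus strand: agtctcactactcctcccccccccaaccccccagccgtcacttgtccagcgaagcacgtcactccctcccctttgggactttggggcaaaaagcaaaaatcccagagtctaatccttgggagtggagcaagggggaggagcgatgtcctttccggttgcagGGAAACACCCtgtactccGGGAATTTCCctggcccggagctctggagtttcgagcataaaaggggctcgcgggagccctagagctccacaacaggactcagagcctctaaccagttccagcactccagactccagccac
Cxcl2, chr5:90903649-90903948, plus strand: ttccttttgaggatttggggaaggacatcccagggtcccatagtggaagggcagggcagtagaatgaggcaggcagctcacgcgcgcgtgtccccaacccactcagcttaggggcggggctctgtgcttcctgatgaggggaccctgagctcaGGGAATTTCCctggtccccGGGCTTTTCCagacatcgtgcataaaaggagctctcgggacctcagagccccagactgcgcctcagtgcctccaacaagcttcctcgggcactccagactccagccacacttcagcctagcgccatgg
Cxcl3, chr5:90785851-90786150, plus strand: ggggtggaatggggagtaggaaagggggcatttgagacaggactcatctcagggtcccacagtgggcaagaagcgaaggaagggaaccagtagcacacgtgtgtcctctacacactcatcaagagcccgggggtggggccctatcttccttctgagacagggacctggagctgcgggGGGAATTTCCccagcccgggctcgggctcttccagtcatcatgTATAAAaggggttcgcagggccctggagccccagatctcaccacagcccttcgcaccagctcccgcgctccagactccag
Cxcl9, chr5:92328030-92328329, minus strand: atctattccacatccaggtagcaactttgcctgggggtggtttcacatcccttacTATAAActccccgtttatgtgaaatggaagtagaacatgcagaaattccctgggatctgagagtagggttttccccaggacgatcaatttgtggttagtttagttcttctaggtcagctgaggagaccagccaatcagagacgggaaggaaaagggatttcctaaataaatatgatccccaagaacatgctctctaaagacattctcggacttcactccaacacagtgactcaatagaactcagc
Cxcl10, chr5:92348840-92349139, minus strand: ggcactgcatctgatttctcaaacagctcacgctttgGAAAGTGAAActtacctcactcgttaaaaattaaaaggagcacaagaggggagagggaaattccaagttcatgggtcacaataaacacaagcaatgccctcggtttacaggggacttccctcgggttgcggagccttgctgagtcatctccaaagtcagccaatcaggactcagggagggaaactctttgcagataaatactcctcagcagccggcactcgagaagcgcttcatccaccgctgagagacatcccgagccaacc

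The NF-κB-like motif was present in the promoters of Cxcl1, Cxcl2 and Cxcl3 and in 1.63% of 32851 RefSeq mouse promoters of the same length. Cxcl1 held 2 matches, from -89 to -80 on the opposite strand and from -71 to -62, counted from the annotated start. Cxcl2 held 2 as well, from -97 to -88 and from -78 to -69, and Cxcl3 held 1, from -73 to -64. Of the 5 genes, only Cxcl10 held the ISRE core, from -213 to -204, and 3.44% of all promoters had it. The GAS letters were in none of the 5 windows and in 8.30% of all promoters, and TATAAA stood at -30 to -25 in Cxcl3 and at -195 to -190 in Cxcl9, against 13.6% of all promoters. No motif overlapped another. A match describes these letters only, and other forms of the same sites were not searched.

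**Figure D1:**
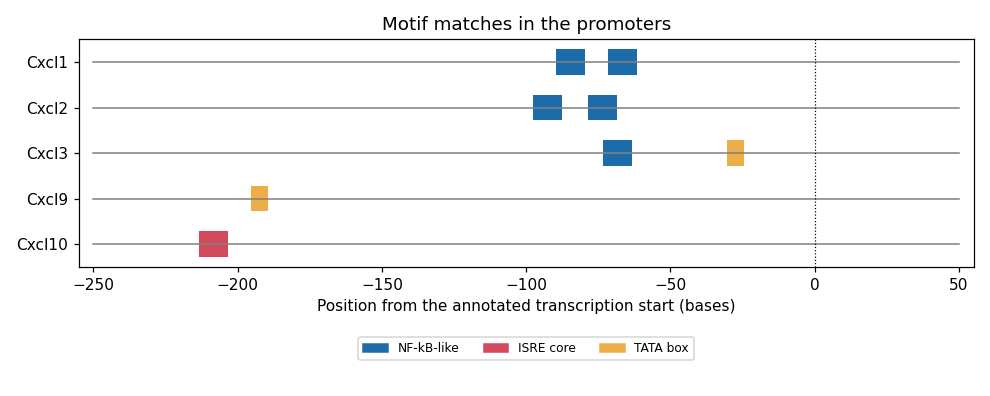
Motif matches in the 5 promoters, by position from the annotated transcription start in bases; each box is 1 match and the dotted line is the start. The NF-κB-like boxes of Cxcl1, Cxcl2 and Cxcl3 all lie between -97 and -62, and the ISRE core of Cxcl10 lies at -213 to -204.

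Each library held 2378639 to 3357300 sense-strand counts on genes. Rn45s, a ribosomal RNA precursor, took 20.1% to 39.8% of them and was left out, so that CPM, a gene's counts scaled to a common library total, refer to the remaining 1502618 to 2532496 counts and 1 count is worth 0.395 to 0.666 CPM. All 9 macrophage markers examined were detected in every BMDM group, and RAW264.7 had 8 of 9, with Mertk at 0. Summed over the 6 stromal markers, levels were 59.8 to 122 CPM in BMDM libraries and 0 in RAW264.7, while T and NK cell, B cell and erythroid markers stayed at or below 3.66 CPM. The summed dendritic cell markers were 45.7 to 50.8 CPM at 1 h of IFN-LPS against 0.582 to 1.19 CPM in BMDM controls, nearly all from Clec9a, with Flt3 and Siglech at 0. The 10 neutrophil markers, of which 9 were measured, summed to 14.9 to 26.2 CPM in BMDM controls and 30.2 to 40.9 CPM at 1 h. On average S100a8 went from 9.22 to 19.1 CPM and S100a9 from 4.33 to 9.35 CPM. Ngp, Camp, Ltf and Prtn3 were lower at 1 h, Mpo and Retnlg were at 0, and Elane was at or below 0.201 CPM. Endothelial markers summed to 12.1 to 49.6 CPM in BMDM libraries, mostly from Kdr, and mast cell and basophil markers to at most 4.63 CPM. Whether cells of these types had a part in any chemokine value was not tested. In bulk RNA, fewer expressing cells and less RNA per cell cannot be told apart.

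In untreated BMDM, Cxcl16 was the one CXC chemokine gene of the 7 with more than 3 counts in any library. Its levels were 165, 138 and 171 CPM in the 3 libraries. The other 6 genes had between 0 and 4 counts over the 3 libraries together, and Cxcl11 had 0. Cxcl16 thus made up 98.9% of the 810 counts of the 7 genes. Among CXC ligands outside the 7, Cxcl12 had a mean of 12.2 CPM, Pf4 3.55 CPM and Cxcl14 2.75 CPM in these controls. Per kilobase of exon it stood at 52.2 ± 5.81 CPM (SD, n = 3), while the other 6 were between 0 and 0.382 CPM per kb with overlapping libraries.

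The family was above control at 1 h of IFN-LPS, the first time measured. IFN-γ preceded LPS by an unstated time and no group had IFN-γ alone. A rise during priming and a rise after LPS therefore cannot be told apart. The 7 genes together went from 0.0140% to 0.0172% of counts in controls to 0.329% to 0.377% at 1 h and 0.454% to 0.469% at 4 h, then to 0.238% to 0.294% at 12 h and 0.140% to 0.153% at 24 h. At 1 h, 6 of the 7 genes rose in edgeR's quasi-likelihood test (FDR ≤ 0.01, absolute log2 fold change ≥ 1.5), beside 5.04% of the 9568 genes tested, and none fell, beside 2.08%. At 4, 12 and 24 h all 7 rose, beside 11.4%, 8.87% and 7.93% of genes, while 11.4%, 8.42% and 6.93% of genes fell. The controls of 5 of these genes held only 1 to 4 counts and that of Cxcl11 none. These 6 genes passed the filter on low counts through the IFN-LPS groups only and could not have been called lower than control. Beside the shares of all genes, the counts of members called are therefore a description and no test of the family. The fitted fold changes of the 6 depend on the prior count, and ratios of pooled CPM are given with a 95% exact interval that covers counting error only.

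**Figure D2:**
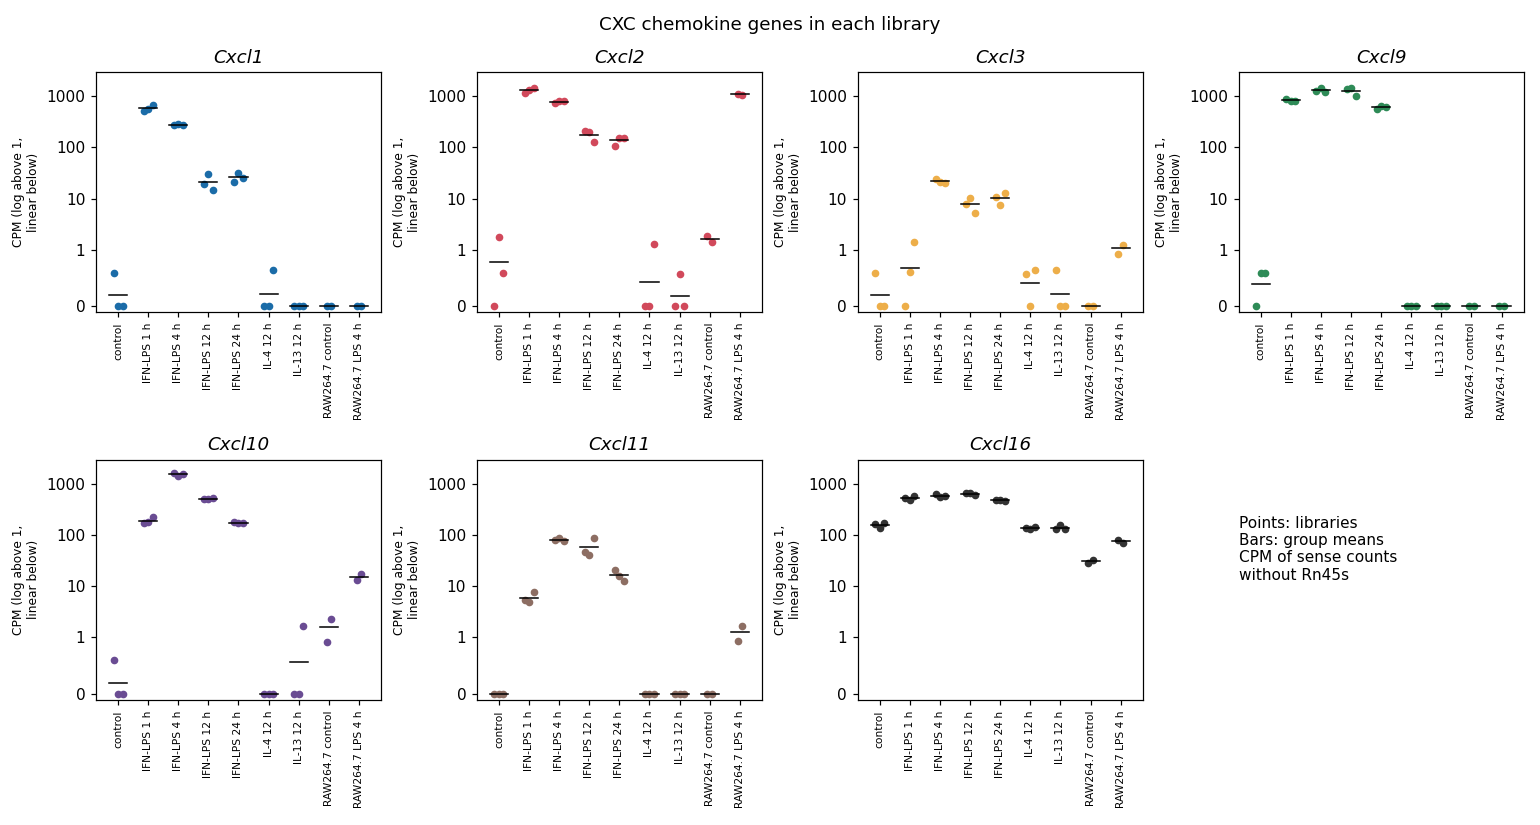
Each point is a library and each bar a group mean, in CPM of sense-strand counts without Rn45s, on an axis that is linear below 1 and logarithmic above. In BMDM, Cxcl1 and Cxcl2 are highest at 1 h, Cxcl3, Cxcl10 and Cxcl11 have their highest mean at 4 h, and Cxcl16 is already present in the controls.

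Among the CXCR2 ligands, Cxcl1 was at 508, 564 and 671 CPM at 1 h, against 0.595, 0 and 0 CPM in controls. All IFN-LPS libraries lay above all controls. With 1 control count, the ratio at 1 h was 2972 (95% interval 533 to 117437), and the fitted log2 fold change was 11.24 (SE 0.29, adjusted p = 1.31e-29), or 13.04 without control replicate 1, which held that count. Cxcl1 was at 280, 281 and 273 CPM at 4 h, then 18.9, 30.3 and 14.4 CPM at 12 h and 21.4, 31.3 and 25.7 CPM at 24 h. The 4 h libraries lay below all 1 h libraries and above all later ones.

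Cxcl2, the most abundant of the family at 1 h, was at 1182, 1319 and 1471 CPM at that time and at 0, 1.79 and 0.582 CPM in controls. It stood at 743, 797 and 814 CPM at 4 h, at 206, 200 and 126 CPM at 12 h and at 107, 152 and 154 CPM at 24 h. All IFN-LPS libraries were above all controls, and the 12 and 24 h libraries overlapped. The ratio to control was 1688 (659 to 6197) at 1 h and still 176 (68.6 to 648) at 24 h.

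Cxcl3 was slower than both neighbours. It had 0, 1 and 3 counts (0, 0.604 and 1.43 CPM) in the 1 h libraries against 1, 0 and 0 counts in controls, where Cxcl1 already had 934 to 1410 counts, and at this depth no change was detectable at 1 h (log2 fold change 1.69, SE 1.22, adjusted p = 0.296). At 4 h it reached 24.0, 21.2 and 20.5 CPM, above all other libraries of the series. The ratio to control was then 111 (19.4 to 4407). It stood at 7.66, 10.3 and 5.29 CPM at 12 h and 10.7, 7.36 and 12.6 CPM at 24 h, and these groups overlapped. Of all 31-base words in Cxcl3 transcripts, 5.09% also occur in another CXC chemokine transcript, as do 7.59% of those in Cxcl2 and 0 in Cxcl1, so a small part of Cxcl2 and Cxcl3 could not be told apart by such short stretches.

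Among the CXCR3 ligands, Cxcl9 had the highest level at 1 h. It was at 893, 796 and 814 CPM at 1 h against 0, 0.596 and 0.582 CPM in controls, a ratio of 2120 (587 to 17509). It stood at 1246, 1482 and 1186 CPM at 4 h and 1417, 1458 and 1007 CPM at 12 h, with overlap between these times. At 24 h it was at 566, 657 and 614 CPM, below all earlier IFN-LPS libraries.

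Cxcl10 was at 171, 178 and 224 CPM at 1 h and at 1619, 1467 and 1592 CPM at 4 h, the highest group mean of any of the 7 genes in any condition. It then stood at 499, 516 and 537 CPM at 12 h and at 179, 171 and 176 CPM at 24 h. The controls had 1 count in all, which gave a ratio of 979 (175 to 38707) at 1 h and 7897 (1417 to 311948) at 4 h. The fitted log2 fold change at 4 h, 12.99 (SE 0.23, adjusted p = 2.72e-41), ranged from 12.55 to 14.81 when 1 library was left out, the latter without control replicate 1.

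Cxcl11 was at 5.32, 4.83 and 7.61 CPM at 1 h, at 80.5, 89.6 and 75.8 CPM at 4 h, at 47.0, 41.7 and 89.0 CPM at 12 h and at 20.5, 16.1 and 12.6 CPM at 24 h. Against the floor of 3 counts over the 3 controls, which were all at 0, it was at least 10.2-fold higher at 1 h, 139-fold at 4 h, 102-fold at 12 h and 27.4-fold at 24 h. Its call at 1 h (adjusted p = 0.00324) rests on 34 counts and was lost without 1 h replicate 1 (0.0148), 1 h replicate 3 (0.0250), 4 h replicate 1 (0.0169) or 24 h replicate 2 (0.0115). The third 12 h library stood apart, with the highest Cxcl11 and the lowest Cxcl1, Cxcl2, Cxcl3, Cxcl9 and Cxcl16 of that group.

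Cxcl16 had the smallest fitted fold change of the 7 at 4, 12 and 24 h. From 165, 138 and 171 CPM in controls it went to 529, 493 and 578 CPM at 1 h, 637, 554 and 574 CPM at 4 h, 663, 682 and 600 CPM at 12 h and 495, 492 and 471 CPM at 24 h. All IFN-LPS libraries lay above all controls, and neighbouring IFN-LPS times overlapped except for 12 and 24 h. The log2 fold changes against control were 1.95 (SE 0.10), 2.42 (SE 0.10), 2.34 (SE 0.10) and 1.85 (SE 0.10), with adjusted p-values of 1.51e-22, 1.19e-26, 3.71e-26 and 4.64e-22. In ratios of pooled CPM these were 3.404 (3.15 to 3.68), 3.71 (3.43 to 4.02), 4.10 (3.79 to 4.43) and 3.08 (2.85 to 3.33).

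The steps between times separated the genes further. From 1 to 4 h, 3 of 7 rose past the cutoffs, beside 7.07% of all genes: Cxcl3 by a log2 fold change of 5.15 (SE 0.45, adjusted p = 5.70e-14), Cxcl10 by 3.36 (SE 0.10, adjusted p = 2.83e-31) and Cxcl11 by 4.09 (SE 0.35, adjusted p = 3.82e-08). The value for Cxcl3 ranged from 4.61 without 1 h replicate 1 to 6.30 without 1 h replicate 3, which held 3 of its 4 counts at 1 h. None fell past the cutoffs, beside 6.95% of genes. The values for Cxcl1 were -0.73 (SE 0.11, adjusted p = 8.12e-07), for Cxcl2 -0.42 (SE 0.14, adjusted p = 0.0217), for Cxcl9 0.99 (SE 0.10, adjusted p = 1.49e-10) and for Cxcl16 0.48 (SE 0.09, adjusted p = 1.25e-05). These steps depend on the scale. Normalization by TMM centres the bulk of genes, and on the plain CPM scale the median of all genes from 1 to 4 h decreased by 0.34 relative to TMM, so that Cxcl1 stood at -1.07, Cxcl2 at -0.76 (adjusted p = 0.000639), Cxcl9 at 0.64 and Cxcl16 at 0.14 (adjusted p = 0.182).

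From 4 to 12 h, 4 of 7 fell, beside 4.45% of genes, and none rose, beside 5.20%. Cxcl1 fell by 3.95 on the log2 scale (SE 0.16, adjusted p = 7.17e-23), Cxcl2 by 2.38 (SE 0.16, adjusted p = 2.26e-10), Cxcl3 by 1.73 (SE 0.28, adjusted p = 1.03e-06) and Cxcl10 by 1.81 (SE 0.09, adjusted p = 1.22e-21). With the fold cutoff as the null hypothesis the call of Cxcl3 was lost (adjusted p = 1). The other 3 did not pass: Cxcl9 was at -0.24 (adjusted p = 0.0531), Cxcl11 at -0.67 (adjusted p = 0.0271) and Cxcl16 at -0.08 (95% interval -0.25 to 0.09, adjusted p = 0.492), the last with a positive sign, 0.14, on the plain CPM scale. The genes that fell were thus all 3 CXCR2 ligands and, of the CXCR3 ligands, Cxcl10.

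From 12 to 24 h, 2 of 7 fell, beside 0.867% of genes, and none rose, beside 0.418%. The 12 and 24 h libraries also differed in the antisense share of Rn45s, given below, and its part in this step was not tested. Cxcl10 fell by 1.65 on the log2 scale (SE 0.10, adjusted p = 4.34e-18) and Cxcl11 by 1.97 (SE 0.28, adjusted p = 7.96e-05). Neither call held with the fold cutoff as the null hypothesis (adjusted p = 1 for both). Cxcl9 (-1.16, SE 0.10, adjusted p = 2.00e-11) and Cxcl16 (-0.50, SE 0.09, adjusted p = 1.81e-05) passed the FDR but not the fold cutoff. The CXCR2 ligands showed no call in either direction, with Cxcl1 at 0.24 (95% interval -0.16 to 0.64), Cxcl2 at -0.43 (-0.76 to -0.11) and Cxcl3 at 0.35 (-0.25 to 0.95).

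**Figure D3:**
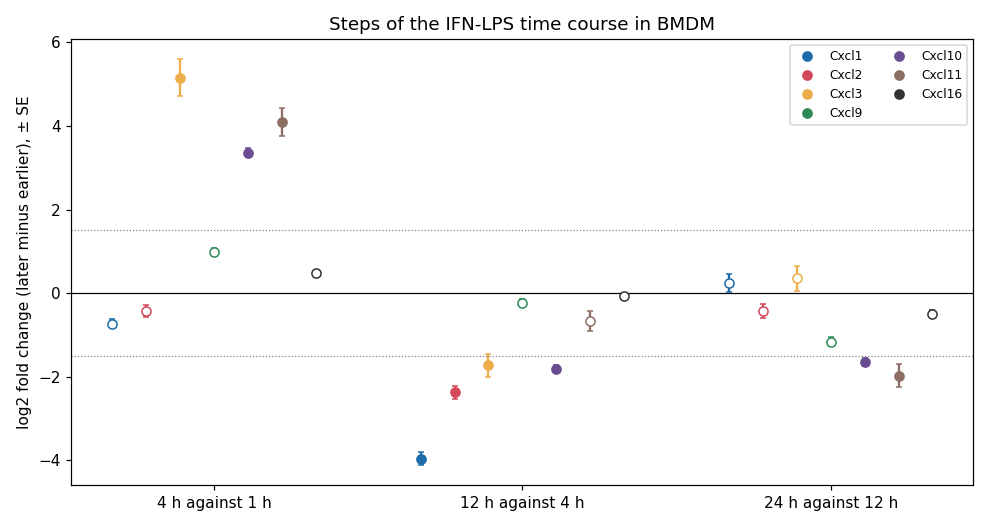
Fitted log2 fold change of each gene from one IFN-LPS time to the next, with its SE, on the TMM scale; filled points passed the FDR and lie beyond the dotted fold cutoffs of -1.5 and 1.5. Cxcl3, Cxcl10 and Cxcl11 rise in the first step, Cxcl1, Cxcl2, Cxcl3 and Cxcl10 fall in the second, and Cxcl10 and Cxcl11 fall in the third.

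The makeup of the family shifted with these steps. Cxcl2 supplied 38.1% of the family's 19656 counts at 1 h and Cxcl1 16.8%. At 4 h Cxcl10 led with 33.7% of 22921 counts, and at 12 and 24 h Cxcl9 led with 47.3% of 15684 and 41.8% of 10041. Cxcl16 held 12.7% of the family's counts at 4 h and 33.1% at 24 h. Counts also scale with transcript length, so the genes were ordered per kilobase of exon as well.

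**Figure D4:**
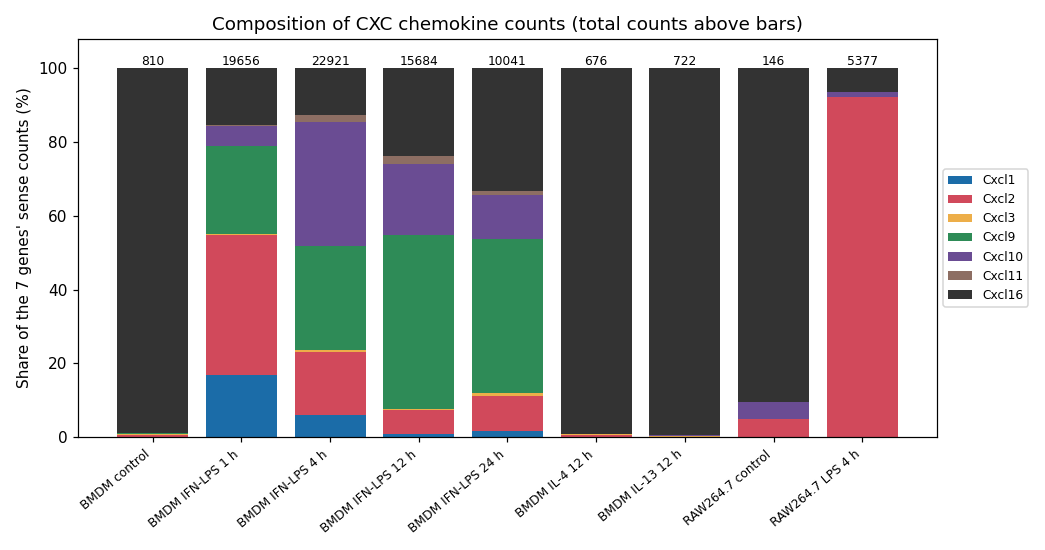
Share in percent of the 7 genes' summed sense counts taken by each gene in each condition, with the total counts above the bars. Cxcl16 holds at least 90.4% in the conditions without LPS, and Cxcl2 holds 92.2% in RAW264.7 given LPS.

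Per kilobase of exon, Cxcl2 was first at 1 h, with 640 ± 70.0 CPM per kb (SD, n = 3). Cxcl1 (310 ± 44.1) and Cxcl9 (277 ± 17.0) came next and overlapped. Cxcl16 (177 ± 14.1), Cxcl10 (84.8 ± 12.6), Cxcl11 (1.56 ± 0.391) and Cxcl3 (0.194 ± 0.205) followed, each apart from its neighbours. At 4 h Cxcl10 was first (693 ± 36.1 CPM per kb), ahead of Cxcl9 (433 ± 51.9) and Cxcl2 (380 ± 17.9), which overlapped, and Cxcl3 was last (6.25 ± 0.529). Cxcl9 was first at 12 h (429 ± 82.8 CPM per kb) and at 24 h (203 ± 15.01), where Cxcl16 (161 ± 4.23) was the next.

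No CXC chemokine gene was called after alternative activation with IL-4 or IL-13. In IL-4-treated BMDM, Cxcl16 was at 135, 131 and 143 CPM, and in IL-13-treated BMDM at 134, 158 and 130 CPM, overlapping the controls. It was the only one of the 7 with enough counts to be tested, and it passed neither threshold with IL-4 (log2 fold change -0.22, 95% interval -0.43 to -0.0045, adjusted p = 0.205) nor with IL-13 (-0.20, -0.41 to 0.0053, adjusted p = 0.207), at a fold cutoff of 0.7. The approximate interval with IL-4 lies just below no change, but the unadjusted p of its quasi-likelihood test was 0.0506. Of 9252 genes, 2.22% rose and 1.64% fell with IL-4, and 2.98% rose and 2.38% fell with IL-13. Between the interleukins the difference was 0.01 (-0.20 to 0.22, adjusted p = 0.996), where 0.0540% of genes were higher and 0.0108% lower with IL-13.

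The other 6 genes had between 0 and 3 counts in every IL-4 and IL-13 library. Cxcl9 and Cxcl11 were at 0 in all 6 of these libraries. With IL-4 the sums over 3 libraries were 1 count for Cxcl1, 2 for Cxcl2, 2 for Cxcl3 and 0 for Cxcl10, and with IL-13 they were 0, 1, 1 and 3. No fold is given for them, since both groups lay at or near the floor of 3 counts. The controls were cultured for 4 h and the interleukin-treated cells for 12 h. The antisense share of Rn45s was 0.0386% to 0.122% in control and 1 to 12 h IFN-LPS libraries and 0.00603% to 0.0214% in 24 h IFN-LPS, IL-4 and IL-13 libraries, and its part in these values was not tested. Comparisons of 24 h IFN-LPS with control or 12 h, and of 12 h IFN-LPS with the interleukins, cross the same split. In RAW264.7 libraries the share was 0.0199% to 0.0283%, below all BMDM control and 4 h IFN-LPS libraries. Comparisons of RAW264.7 with BMDM therefore differ in it too.

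At the matched time of 12 h, IFN-LPS and the interleukins stood far apart. These groups lie on opposite sides of the split in the antisense share of Rn45s given above, whose part was not tested. Against IL-4, 6 of the 7 genes were higher with IFN-LPS, beside 8.76% of 9380 genes, and none was lower, beside 7.53%. Against IL-13 the same 6 were higher, beside 8.75%, and none lower, beside 7.40%. Of these, all but Cxcl16 had at most 3 counts in any interleukin library. They passed the filter on low counts through IFN-LPS only and could not have been called lower. Cxcl16 differed by log2 fold changes of 2.60 (SE 0.11, adjusted p = 2.00e-21) and 2.58 (SE 0.11, adjusted p = 2.07e-21). Cxcl9 was at least 2107-fold higher than with IL-4 and 2175-fold higher than with IL-13, against a floor of 3 counts over 3 libraries. Cxcl10 was at least 851-fold higher than with IL-4, and the ratio to IL-13, which had 3 counts, was 879 (300.3 to 4262). Cxcl2 had ratios of 432 (119 to 3574) and 893 (160 to 35289). Cxcl1 had a ratio of 102 (17.998 to 4070) to IL-4 and was at least 35.2-fold higher than with IL-13. Cxcl11 was at least 99.4-fold and 103-fold higher, but its adjusted p-values of 0.00995 and 0.00959 lay near the threshold, and they rose to 0.0349 and 0.0340 without 12 h IFN-LPS replicate 1 and to 0.0135 and 0.0201 without IL-13 replicate 1. The call against IL-13 was also lost without IL-13 replicate 2 (0.0149) or replicate 3 (0.0157). Cxcl3 was left out by the filter on low counts, with 44 counts against 2 and 1.

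In RAW264.7 cells, 2 of the 3 members tested, Cxcl2 and Cxcl10, rose with LPS (FDR ≤ 0.01, absolute log2 fold change ≥ 2), beside 2.39% of 9406 genes, and none fell, beside 0.829%. Cxcl2 and Cxcl10 had 7 counts each over the 2 controls and passed the filter on low counts through the LPS libraries. A fall could hardly have been called for them. Cxcl2 went from 1.84 and 1.40 CPM to 1115 and 1069 CPM. The ratio was 672 (326 to 1673) and the log2 fold change 9.52 (SE 0.16), with a p-value too small for the software to hold. Cxcl10 went from 0.918 and 2.34 CPM to 13.0 and 17.1 CPM, a log2 fold change of 3.36 (SE 0.45, adjusted p = 1.18e-12). It ranged from 2.83 without control replicate 1 to 4.16 without control replicate 2, and its call was lost with the fold cutoff as the null hypothesis (adjusted p = 0.0530). Cxcl16 went from 28.5 and 32.8 CPM to 81.3 and 69.0 CPM, and its log2 fold change of 1.47 (SE 0.16, adjusted p = 6.69e-19) lay under the fold cutoff. In all 3 genes both LPS libraries were above both controls. With 2 libraries a group, the fit gave most genes a common spread, so these errors rest on all genes more than on the gene itself.

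The other 4 members were near or at 0 in RAW264.7. Cxcl1 and Cxcl9 had 0 counts in all 4 libraries, with and without LPS. Cxcl3 had 2 and 3 counts and Cxcl11 2 and 4 counts with LPS, against 0 in both controls. The lower 95% limits of the ratios to control, for counting error only, were 0.870 for Cxcl3 and 1.12 for Cxcl11, and neither gene had enough counts to be tested.

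Set beside each other at 4 h, both cells had Cxcl2 at high levels. BMDM given IFN-LPS were at 743 to 814 CPM and RAW264.7 given LPS at 1069 and 1115 CPM, a BMDM to RAW264.7 ratio of 0.721 (0.691 to 0.752). The BMDM ratio was 102 (80.8 to 132) for Cxcl10, 62.3 (28.4 to 171) for Cxcl11, 19.8 (8.22 to 62.2) for Cxcl3 and 7.83 (6.99 to 8.78) for Cxcl16. Cxcl1 and Cxcl9 were at least 421-fold and 1986-fold higher in BMDM than the floor of 3 counts over the 2 RAW264.7 libraries. With the TMM factors of the fit of both cells in place of the plain total, an alternative added after seeing the data, the ratio for Cxcl2 turned to 1.18 (1.14 to 1.24). The others rose to 168 for Cxcl10, 102 for Cxcl11, 32.5 for Cxcl3 and 12.9 for Cxcl16, and the bounds to 692-fold for Cxcl1 and 3263-fold for Cxcl9. These ratios carry counting error only and no test. The cells also differ in origin, in culture medium (RPMI for RAW264.7, DMEM for BMDM) and in M-CSF, which is described for BMDM only. They differ in IFN-γ as well, which the RAW264.7 cells did not receive, and these differences cannot be told apart. The antisense share of Rn45s given above differed too, and its part was not tested.

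**Figure D5:**
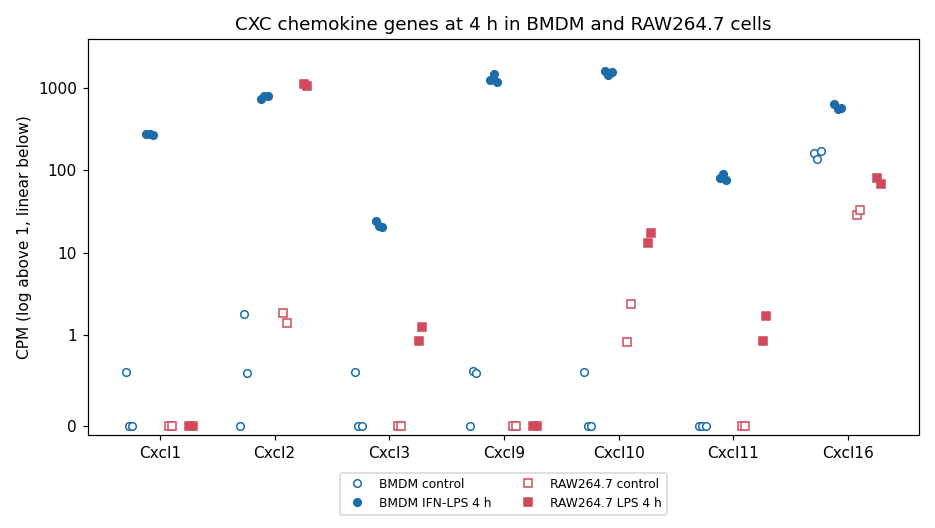
CPM of each gene in each library of BMDM (circles) and RAW264.7 (squares), open for controls and filled for IFN-LPS (BMDM) or LPS (RAW264.7) at 4 h, on an axis that is linear below 1 and logarithmic above. Cxcl2 is at 743 to 814 CPM in treated BMDM and at 1069 and 1115 CPM in treated RAW264.7, whereas Cxcl1 and Cxcl9 remain at 0 in RAW264.7.

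Untreated RAW264.7 had less Cxcl16 than untreated BMDM, with a log2 fold change of -2.64 (SE 0.14, adjusted p = 1.30e-39). It was the one member called in that comparison, beside 12.7% of 10269 genes lower and 9.85% higher. The other members had at most 7 counts in either untreated group, so that a call was hardly possible for them. The change with treatment was then compared between the cells. Of the 7 genes, 1 was called in this test, Cxcl10, whose change was smaller in RAW264.7 by a log2 difference of -9.80 (SE 1.17, adjusted p = 5.08e-13), beside 5.04% of genes with a lower and 3.68% with a higher change. It ranged from -11.80 without BMDM control replicate 1 to -9.01 without RAW264.7 control replicate 2. For Cxcl16 the difference of -1.04 (SE 0.20, adjusted p = 3.54e-06) was under the cutoff of 2, and for Cxcl2 it was -0.95 (95% interval -2.56 to 0.65, adjusted p = 0.407). For Cxcl1, Cxcl3, Cxcl9 and Cxcl11, whose RAW264.7 controls were at 0, edgeR gave no usable error. DESeq2 called Cxcl1 (adjusted p = 3.68e-05) and Cxcl9 (adjusted p = 1.10e-06) besides Cxcl10. Cxcl1 and Cxcl9 were at 0 in RAW264.7 with and without LPS, so their change there could not be estimated. These DESeq2 calls are therefore no measure of a difference between the cells.

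The genes that signal to this family and act on its products were counted from lists. Of 14 genes of the NF-κB arm, 9 rose at 1 h and 12 at 4 h of IFN-LPS, beside 5.04% and 11.4% of all genes, with a median log2 fold change at 4 h of 3.48 beside -0.07 over all genes. Tnfaip3, which encodes the feedback inhibitor A20, rose by 6.02 (SE 0.11) from 61.7 to 2797 CPM, Nfkbiz, a nuclear IκB that acts as a cofactor, by 5.88 (SE 0.12), and Nfkbie, an inhibitory IκB, by 5.34 (SE 0.18), with adjusted p-values of 4.83e-40, 2.10e-38 and 1.29e-29. Of 15 genes of the interferon arm, 3 rose at 1 h and 9 at 4 h (median 2.10), beside the same shares. Irf7, a factor of the type I interferon response, rose by 7.34 (SE 0.15, adjusted p = 1.56e-38) and Socs1, a feedback inhibitor of JAK kinases, by 6.35 (SE 0.29, adjusted p = 8.30e-24). Ifnb1, interferon β itself, had 0 CPM in controls and 16.8 CPM at 4 h (adjusted p = 1.32e-08). In RAW264.7, 5 of 14 genes of the NF-κB arm and 1 of the 13 tested genes of the interferon arm, Irf7 (2.11, SE 0.15, adjusted p = 4.16e-44), rose with LPS, beside 2.39% of genes. With IL-4, 1 of 13 tested genes of the NF-κB arm fell, beside 1.64% of genes, and 3 of 14 of the interferon arm rose, beside 2.22%. The counts with IL-13 were also 1 of 13 and 3 of 14, beside 2.38% and 2.98%.

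Chemokine mRNAs are short-lived, and 9 genes of mRNA decay and stability were counted for that reason. At 1 h, 3 of them rose, beside 5.04% of genes, and none fell, beside 2.08%. These were Zfp36, which encodes tristetraprolin, from 62.6 to 694 CPM (log2 fold change 3.66, SE 0.16, adjusted p = 1.04e-16), Zc3h12a, which encodes the RNase Regnase-1 (2.45, SE 0.14, adjusted p = 1.79e-20), and Zfp36l1 (1.57, SE 0.14, adjusted p = 1.09e-12). At 4 h, 1 rose and 2 fell, beside 11.4% of genes in each direction (median 0.49). Zc3h12a was higher by 2.84 (SE 0.14, adjusted p = 2.02e-23). Zfp36l2 and Zfp36l1, relatives of tristetraprolin that bind AU-rich elements, were lower. Zfp36l2 fell by 3.83 on the log2 scale (SE 0.23, adjusted p = 5.21e-17) and Zfp36l1 fell by 3.30 (SE 0.28, adjusted p = 5.13e-14).

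Of 8 proteases that cut CXC chemokines, 6 were tested, and at 4 h 1 rose and 2 fell, beside 11.4% of genes in each direction. Mmp13, a collagenase, rose by 6.24 (SE 0.37, adjusted p = 2.30e-08), while Mmp8, the neutrophil collagenase, fell by 2.67 (SE 0.55, adjusted p = 4.46e-05) and Mmp12, macrophage elastase, fell by 2.31 (SE 0.11, adjusted p = 3.32e-23). Their median was 0.16. Adam10, the sheddase of CXCL16, was at 132 CPM at 4 h and 247 CPM in controls on average and was not called (-0.37, adjusted p = 0.00440).

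The receptors were mostly silent in these cells. Of 8 CXC receptors and decoys, 2 were tested. Cxcr4, the receptor of CXCL12 and of none of the 7 chemokines, fell by 6.49 (SE 0.21, adjusted p = 6.46e-31) at 4 h, from a mean of 399 CPM to 3.05 CPM. Cxcr3 was at 13.6 CPM in controls and 5.99 CPM at 4 h (-0.68, adjusted p = 0.0782), and it was called lower at 24 h, at 2.53 CPM (-2.20, SE 0.37, adjusted p = 1.87e-06), with IL-4, at 3.04 CPM (-2.14, SE 0.38, adjusted p = 2.92e-05), and with IL-13, at 2.18 CPM (-2.65, SE 0.41, adjusted p = 1.07e-06). Cxcr2 and Cxcr6 had mean levels below 1 CPM in both BMDM controls and at 4 h. Among the 8 other CXC ligands, Cxcl5, a further CXCR2 ligand, rose by 4.56 (SE 0.90, adjusted p = 2.50e-05) to 4.65 CPM at 4 h, with 2 genes of the list tested. On average Cxcl12 stood at 12.2 CPM in controls and 5.64 CPM at 4 h, and it was tested but not called. Cxcl14 stood at 2.75 and 0.994 CPM and was left out by the filter on low counts.

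The genes whose pattern was most like that of each member were sought over the 9 condition means of log2(CPM + 1), among 9616 genes that reached 10 CPM in at least 1 condition. Cxcl1 was closest to Gem (r = 0.980), Clcf1 (0.978) and Irf1 (0.961), and Cxcl2 to Pde4b (0.982), Nfkbiz (0.978) and Ccl4 (0.978). Cxcl3 was closest to Kdm4a (0.979), Dtx3l (0.979) and Trim21 (0.978). Cxcl9 was closest to Dnase1l3, Gbp5 and Gbp4 (0.993 each), Cxcl10 to Cd40 (0.990), Rsad2 (0.990) and Cd69 (0.989), and Cxcl11 to Igtp (0.993), Casp4 (0.991) and Tgtp1 (0.988). Cxcl16 was closest to Il18bp (0.982), Tapbp (0.974) and Mefv (0.974). Between members, r ran from 0.554 for Cxcl2 and Cxcl16 to 0.965 for Cxcl10 and Cxcl11. These are descriptions over 9 points that share libraries and controls.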

How the data were processed

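Per the submitters' processing notes, base calls came from CASAVA 1.8.2, reads were trimmed with Trimmomatic 0.33 and aligned to mm10 with STAR 2.5.1. The authors deposited 1 file of raw read counts per gene symbol and library, in whole numbers without normalization. The annotation release is not given in the sources used here. Of the unstranded, antisense and sense columns, the sense column was used, since the library kit is directional and this column held 93.9 to 158 times the antisense total. The authors depleted ribosomal RNA, and Rn45s was removed from the counts here. The members and gene lists were chosen with earlier results of these data known.

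Groups were taken from the sample labels. Counts were tested in R 4.3.3 with edgeR 4.0.16 (filterByExpr by group, TMM, robust quasi-likelihood fits, Benjamini-Hochberg adjustment within each of 15 comparisons). There were 5 fits, for the IFN-LPS time course with control, for the interleukins with control, for RAW264.7, for the 12 h treatments and for both cells at 4 h. Calls needed an FDR ≤ 0.01 and an absolute log2 fold change ≥ 1.5 (IFN-LPS), ≥ 0.7 (IL-4 and IL-13) or ≥ 2 (RAW264.7 and both cells). Standard errors were derived from the F statistic and the fold change, and intervals of fold changes are 1.96 SE wide on each side. Fitted values against groups at 0 to 3 counts depend on the prior count. CPM are plain counts scaled by the library total without Rn45s. Counting intervals are exact (95%), and the floor is 3 counts over a group. Exon lengths and positions are from GENCODE M21 and promoters from RefSeq.

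Named genes were all 7 members, the 3 genes most correlated with each, and up to 3 called genes per list with the largest change at 4 h, and 1 gene of the interferon arm is not reported here. Adam10, Cxcl12, Cxcl14, Cxcr2, Cxcr3, Cxcr6, Pf4, Zfp36 and the RAW264.7 value of Irf7 stand outside that rule and were named after their values were seen. Alternatives were RLE normalization, DESeq2 1.42.0, no filter, unstranded counts, Rn45s kept, 1 fit of all 25 libraries, a replicate block, the fold cutoff as the null hypothesis, each library left out, and, added after seeing the data, scaling by the total without TMM factors, and with them for the 4 h ratios of BMDM to RAW264.7. No 2 libraries of a group agreed within sampling noise (chi-square per degree of freedom from 1.33 to 4.93). The tests were checked on simulated counts, with log2 changes of 1, 2 or 3 in size set in genes with higher counts. Changes of 1 were recovered in 57 of 67 genes for IFN-LPS at 4 h. For LPS in RAW264.7 and for IL-4 this was 49 of 67 each. All changes of 2 and 3 were recovered. This check does not cover members with controls near the floor. Figures were drawn with Python 3.11.15 and matplotlib 3.10.9.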

Additional observations from a re-analysis of the deposited data

Results flagged for a closer look

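The change with treatment differed between the 2 kinds of cell past the FDR for Cxcl10, which was called, and for Cxcl16, which lay under the fold cutoff of 2. The RAW264.7 change minus the BMDM change was -9.80 on the log2 scale for Cxcl10 and -1.04 for Cxcl16, the latter -0.60 (adjusted p = 0.00773) without TMM factors. The Cxcl10 value rests on 1 count in BMDM controls, and cell type, culture conditions and IFN-γ cannot be told apart.

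No comparison used the antisense counts. The treated groups given here are those in which every library exceeded the matching controls, in counts not scaled to library size. Other groups did not meet this, such as Cxcl9 at 24 h (0, 1 and 4 counts) and Cxcl10 at 1 h (0, 1 and 2 counts). For Cxcl16 in RAW264.7 the excess was only 3 and 3 counts against 2 and 2. Summed over a group, Cxcl1 had 14 antisense counts at 1 h and 8 at 4 h of IFN-LPS. Cxcl2 had 13 and 12 at these times and 5 in RAW264.7 given LPS. Cxcl9 had 9, 20 and 31 at 1, 4 and 12 h, and Cxcl10 had 27 at 4 h and 10 at 12 h. Cxcl16 had 17, 21, 44 and 28 at 1, 4, 12 and 24 h against 6 in BMDM controls, and 6 in RAW264.7 given LPS against 4 in its controls. As a share of sense plus antisense counts these ran from 0.101% (Cxcl2 in RAW264.7) to 1.73% (Cxcl16 in RAW264.7), where the antisense strand of Cxcl16 overlaps Zmynd15. For Cxcl16 the share was 0.743% in BMDM controls and 0.558%, 0.718%, 1.16% and 0.834% at 1, 4, 12 and 24 h. In RAW264.7 it was 2.94% in controls and 1.73% with LPS. Sense counts rose as well, so higher antisense counts did not always mean a higher share.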

How the results depend on the processing

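Over the single-gene results and their alternatives, 1728 of 1751 values kept their direction and their side of the thresholds, 17 lost the call, 2 gained it and 4 changed sign. With the fold cutoff as the null hypothesis, the members called were 1 with LPS in RAW264.7 (Cxcl10 lost it, adjusted p = 0.0530) and 0 from 12 to 24 h, and Cxcl3 from 4 to 12 h and Cxcl11 at 1 h (0.0520) and against both interleukins (0.0511 and 0.0491) were lost too. All-gene counts then fell from 681, 2180, 1655 and 1422 at 1, 4, 12 and 24 h to 338, 1192, 975 and 850, for the steps from 1341, 924 and 123 to 588, 284 and 5, and for IL-4, IL-13 and their difference from 357, 496 and 6 to 81, 131 and 0. They fell from 303 to 121 for LPS in RAW264.7, from 1528 and 1515 to 908 and 903 for IFN-LPS against IL-4 and IL-13, from 2317 to 1423 between untreated cells and from 896 to 297 for the difference in change. In the last of these DESeq2 called 3 members, where Cxcl1 (-10.84, adjusted p = 3.68e-05) and Cxcl9 (-12.17, adjusted p = 1.10e-06) joined Cxcl10. Cxcl1 and Cxcl9 were at 0 in RAW264.7 with and without LPS, so these calls measure no change there. Between the interleukins DESeq2 called 3 genes, against 2 without IL-4 replicate 3. Cxcl16 from 4 to 12 h was 0.14 without TMM factors, and between the interleukins it ranged from -0.0843 to 0.0679 with 1 library left out. Members called with 1 library left out ranged from 5 to 6 at 1 h and from 5 to 7 for IFN-LPS against either interleukin. Scaling by the total shifted the median of all genes by -0.53 at 4 h against control, -0.19 at 1 h, -0.31 at 12 h and -0.22 at 24 h, with each member's calls as before. Replicate numbers did not pair the libraries: deviations of same-numbered libraries correlated from -0.07 to 0.17 in the time course, and the replicate block left 81 of 81 results on their side of the thresholds, with 6 members called at 1 h. Low counts in controls limit the folds of all members but Cxcl16.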
